A study of Mus musculus with 6 samples.

Results

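The comparison described here sets both METTL3 mutant lines, taken as 1 group, against the wild type. Its 4 members of the 6 libraries in the series were chosen by genotype label alone: 2 libraries labelled METTL3 knock-out (KO) and 2 labelled METTL3 D395A, against 2 labelled WT. All 6 came from E14TG2a, a mouse embryonic stem (ES) cell line, grown in N2B27, a defined serum-free medium. The KO line was made by CRISPR/Cas9 disruption of the endogenous gene, and the D395A line by CRISPR/Cas9 knock-in through homology-mediated end joining, with an aspartate of METTL3 replaced by alanine. The labels name 1 line per mutant genotype and do not say whether the libraries of a genotype were separate cultures, so the p-values measure the spread between these libraries, which may be technical. The 4 mutant libraries are 2 lines of 2, not 4 independent mutants. RNA was total RNA after removal of ribosomal RNA, and the study's stated interest was how m6A and circular RNA relate.

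METTL3 is the catalytic subunit of the writer complex that places N6-methyladenosine (m6A) on messenger RNA, working as a heterodimer with METTL14 and with WTAP, VIRMA and other adaptors. The mark is read by YTH domain proteins, of which the cytoplasmic YTHDF proteins are known for promoting the decay of marked transcripts, and it can be removed by ALKBH5 and FTO. Mouse ES cells survive without METTL3, and loss of m6A in them is known to lengthen the life of many marked transcripts, including those of pluripotency factors. The replaced aspartate lies in the conserved catalytic motif of METTL3 that binds the methyl donor.

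Mettl3 itself (chr14:52294841-52305128, minus strand, GRCm38) was measured at 28.5 and 31.6 CPM, counts scaled to library size, in the WT libraries. It stood at 7.82 and 6.17 CPM in the KO libraries and 21.1 and 23.4 CPM in the D395A libraries. All 4 mutant libraries thus lay below both WT libraries, far below in KO and only slightly below in D395A, and 18.4% of its exonic length overlaps exons of Tox4 on the opposite strand. The pooled log2 fold change was -1.04 ± 0.56 (SE), with an adjusted p of 0.181 (edgeR quasi-likelihood, Benjamini-Hochberg), so the gene did not pass the threshold of 0.05. D395A exceeded KO by 1.67 ± 0.12 log2 units (edgeR quasi-likelihood on 3 groups, adjusted p 1.23e-07).

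Gene counts ranged from 22859491 to 40476809 per library, the lowest being D395A replicate 1. Libraries of 1 genotype correlated at 0.993 to 0.998 in log2 CPM over genes and those of different genotypes at 0.923 to 0.963, and within each pair the counts differed by more than sampling noise (chi-square over degrees of freedom 3.26 in WT, 6.73 in KO, 11.7 in D395A). The ribosomal precursor Rn45s took 10.8 to 11.2% of gene counts in WT and 13.9 to 16.7% in the mutants. All 11 ES cell markers examined were detected in every library. They summed to 4601 to 4647 CPM in WT, 5160 to 5179 in KO and 2550 to 2693 in D395A. Of the 11, 0 were called higher and 1 lower (edgeR). Both KO libraries lay above WT for Pou5f1, Nanog, Klf4, Esrrb and Dppa5a, and below it for Zfp42, Tdgf1, Utf1 and Lin28a. Nanog had 910 to 931 CPM in WT and 1545 to 1609 in KO, and Tdgf1 761 to 788 and 486 to 512. Both D395A libraries lay below WT for all of these but Lin28a, which was above it, as was Sall4. Fibroblast markers summed to 7.82 to 8.10 CPM in WT and 9.31 to 11.5 CPM in the mutants, with Col3a1, Lum and Dcn at 0 in WT, and 0 of the 6 tested passed in either direction (edgeR). Single fibroblast markers differed in direction. Thy1 had 1.63 to 1.89 CPM in WT, 4.21 to 4.95 in KO and 0.250 to 0.341 in D395A. Acta2 was under 1 CPM in WT and KO and at 5.13 to 5.54 in D395A, and Col1a1 was at 3.81 to 4.05 in WT and 0.767 to 2.77 in the mutants. Of the 7 blood and endothelium markers, the haemoglobin genes Hba-a1 and Hbb-bs were at 0 in all 6 libraries. The 7 summed to 282 to 283 CPM in WT and 37.7 to 96.7 in the mutants, nearly all of it Pecam1. Of the 4 tested, 1 was called higher and 1 lower (edgeR). Tal1 was at 0.524 to 0.885 CPM in WT and 1.24 to 3.78 in the mutants, and Cdh5 at 0 to 0.0246 and 0.170 to 0.490. Extraembryonic endoderm markers summed to 11.7 to 12.3 CPM in WT and 24.5 to 44.0 CPM in the mutants. Most of the higher sum was Dab2, with 2.90 to 3.11 CPM in WT and 16.5 to 25.4 in the mutants, and in D395A also Foxa2, with 20.2 to 22.5 CPM, while Gata4 (4.8 to 5.68 CPM in WT, 1.11 to 2.25 in the mutants) and Gata6 (2.38 to 2.45 and 0.597 to 1.19) fell. Mesoderm markers summed to 17.6 to 20.3 CPM in WT and 2.33 to 9.80 CPM in the mutants, and 1 of the 3 tested was called lower (edgeR). Most of that sum was Eomes, also a trophoblast marker, with 13.3 to 14.1 CPM in WT and 1.64 to 8.90 in the mutants. Eomes itself was not called. The mesoderm marker T was at 3.36 to 4.89 CPM in WT and 0.0852 to 0.227 in the mutants. Mixl1 was at 0.799 to 1.30 CPM in WT and 0.313 to 0.778 in the mutants. Neural progenitor markers summed to 38.0 to 39.3 CPM in WT and 36.2 to 45.9 in the mutants, and 0 of the 4 tested passed (edgeR). Pax6 was at 1.18 to 1.41 CPM in WT, 0.0853 to 0.605 in KO and 10.6 to 11.3 in D395A. Nes had 32.1 to 34.1, 33.2 to 34.8 and 14.0 to 16.2. Trophoblast markers summed to 59.4 to 61.0 CPM in WT and 50.8 to 64.1 in the mutants, with 1 of the 5 tested called higher and 0 lower (edgeR). Gata3 was at 0.138 to 0.148 CPM in WT and 0.922 to 1.33 in the mutants. Cdx2 exceeded 1 CPM only in D395A, at 2.72 to 3.11. In these bulk libraries, fewer cells of a type and less RNA per cell cannot be told apart.

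Of 15663 genes that passed the filter on low counts, 4867 (31.1%) lay above both WT libraries in all 4 mutant libraries and 4971 (31.7%) lay below both, 62.8% together. Of all genes tested, 3085 rose (19.7%) and 3009 fell (19.2%) at an adjusted p under 0.05 (edgeR quasi-likelihood), 38.9% together, and each of these was also on 1 side. The genes that rose did so by a median of 1.01 on the log2 scale, and those that fell had a median of -0.79. At least 2-fold changes numbered 1551 upward (9.90% of those tested) and 1138 downward (7.27%), and at least 8-fold changes 321 (2.05%) and 215 (1.37%). The single gene permutation test cannot reach 0.05 here, since 4 libraries against 2 allow an exact two-sided p no smaller than 0.133.

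These counts depend on how the lines are weighed. In limma-voom with the line as a block (estimated correlation within lines 0.776), 959 genes rose (6.12%) and 1216 fell (7.76%). Without WT replicate 1 the pooled comparison called 2062 genes in all, and without WT replicate 2 it called 2077. When KO and D395A had a coefficient each and their mean was set against WT, 9295 genes were on 1 side and called. The biological coefficient of variation was 30.6% with the mutants as 1 group and 6.00% with 3 groups: the difference between the lines is part of the spread in the pooled comparison. Of the 3085 genes that rose, 1429 (46.3%) also differed between D395A and KO in size. So did 1101 of the 3009 that fell (36.6%), beside 50.4% of all genes tested. Lower shares are built in, since a difference between the lines makes a pooled call less likely. Set against WT line by line in the fit with 3 groups, 66.2% of genes were called in KO and 70.3% in D395A, with the WT libraries shared.

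Among the subunits of the m6A writer complex, Wtap and Virma rose in both lines while Mettl14 fell slightly. Wtap (chr17:12966796-12994169, minus strand), the adaptor that places the methyltransferase in nuclear speckles, had 95.3 and 95.4 CPM in WT. It reached 249 and 258 CPM in the KO libraries and 187 and 195 CPM in the D395A libraries. Both lines stood clear of WT and KO was the higher of them, with a pooled log2 fold change of 1.22 ± 0.16 (edgeR, adjusted p 0.00268). Virma, the scaffold subunit, went from 97.1 and 95 CPM in WT to 185 and 192 CPM in the KO libraries and 174 and 187 CPM in the D395A libraries, a log2 fold change of 0.94 ± 0.07 (edgeR, adjusted p 0.000578). Rbm15b, an RNA-binding adaptor of the complex, rose by 0.76 ± 0.17. Mettl14, the partner of METTL3 in the heterodimer, was at 32 and 32.5 CPM in WT, 19.3 and 20.8 CPM in the KO libraries and 23.3 and 27.2 CPM in the D395A libraries, a log2 fold change of -0.51 ± 0.15 (edgeR, adjusted p 0.0371). Zcchc4, the m6A methyltransferase of 28S ribosomal RNA, fell by 0.34 on the log2 scale. In all, 3 of 12 writer genes rose and 2 fell, beside 19.7% and 19.2% of all genes. With either WT library left out, or with the line as a block, Wtap and Virma alone of these 5 passed the threshold, and the calls of Mettl14 and Zcchc4 were also lost when certain mutant libraries were left out (Mettl14 without either KO library or D395A replicate 1, Zcchc4 without either D395A library).

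Of the 14 reader and eraser genes tested, 5 rose and 4 fell, beside the 19.7% and 19.2% of all genes. The 5 that rose were the YTH domain readers Ythdf1, Ythdf2, Ythdf3, Ythdc1 and Ythdc2, and the 4 that fell were Alkbh5, Igf2bp1, Hnrnpc and Fmr1 (Ythdc2, Hnrnpc and Fmr1 are named here after their values were seen). Ythdf2 (chr4:132184912-132212303, minus strand), which recruits the deadenylation machinery to marked transcripts, moved from 129.6 and 129.5 CPM in WT to 304 and 334 CPM in the KO libraries and 294 and 322 CPM in the D395A libraries. The lines overlapped with each other and not with WT, with a pooled log2 fold change of 1.27 ± 0.08 (edgeR, adjusted p 0.000479). Ythdc1, the nuclear reader, was at 99.7 and 102 CPM in WT, 184 and 192 CPM in the KO libraries and 187 and 204 CPM in the D395A libraries. Log2 fold changes were 0.93 ± 0.08 for Ythdc1, 0.73 ± 0.08 for Ythdf1 and 0.63 ± 0.09 for Ythdf3. Alkbh5, an m6A demethylase, fell from 384 and 398 CPM in WT to 175 and 189 CPM in the KO libraries and 184 and 204 CPM in the D395A libraries, a log2 fold change of -1.06. Igf2bp1, which binds and stabilises marked transcripts, went from 1249.9 and 1225 CPM to 739 and 793 CPM in the KO libraries and 661 and 756 CPM in the D395A libraries. Alkbh5 and Igf2bp1 both lie on chromosome 11, where 40.1% of all tested genes fell, and a change of these genes cannot be told apart from that of their chromosome. Ythdf3 lost its call without WT replicate 1 and with the line as a block (adjusted p 0.0549), while the list counted 3 or 4 higher and 2 lower without 1 WT library.

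**Figure D1:**
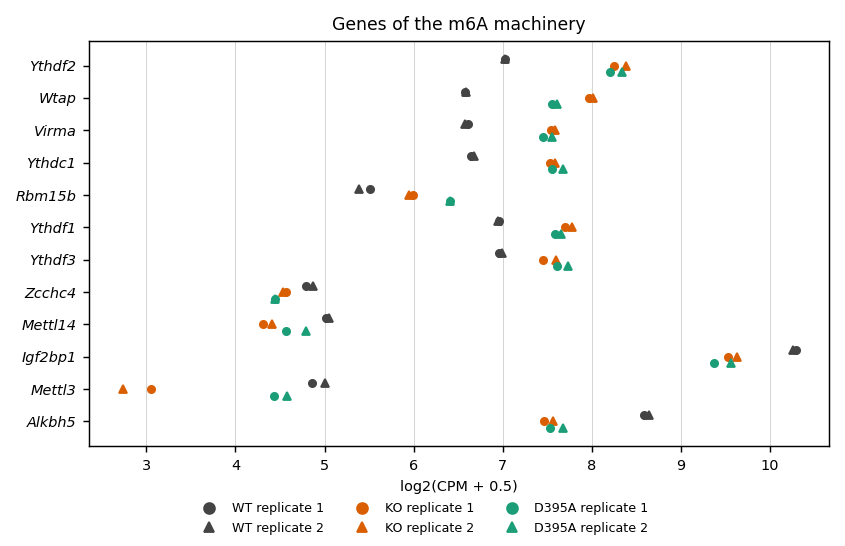
Level of 12 genes of the m6A machinery in each library, as log2 of CPM plus 0.5 on the horizontal axis; circles are replicate 1, triangles replicate 2, and colours are genotypes. Mettl3 is lowest in the KO libraries (6.17 and 7.82 CPM), while Ythdf2, Wtap, Virma and Ythdc1 lie to the right of WT in all 4 mutant libraries.

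The largest separations upward involved genes that WT cells barely expressed. Tshz1, a teashirt zinc finger transcription factor, had 0.295 and 0.717 CPM in WT. It had 16.7 and 17.4 CPM in the KO libraries and 20.3 and 22.2 CPM in the D395A libraries, a log2 fold change of 5.25 ± 0.40 (edgeR, adjusted p 0.000582). The mutant libraries were close to each other, and neither WT library came near them. Gucy1a2, a subunit of soluble guanylate cyclase, rose from 2.43 and 2.07 CPM to 32.5 and 35.1 CPM in the KO libraries and 38.6 and 35.7 CPM in the D395A libraries. Zfp521, a zinc finger regulator of progenitor cells, rose from 1.43 and 1.3 CPM to 19.8 and 19.3 CPM in the KO libraries and to a higher 32.6 and 40.6 CPM in the D395A libraries. Lefty1, a secreted inhibitor of Nodal signalling, rose from 1.97 and 1.76 CPM to 22.7 and 20.3 CPM in the KO libraries and 21.2 and 25.2 CPM in the D395A libraries, with the lines interleaved (log2 fold change 3.58 ± 0.16). Efnb1, an ephrin ligand that acts at contacts between cells, rose from 3.25 and 2.26 CPM to 42.8 and 45 CPM in the KO libraries and 30.2 and 36 CPM in the D395A libraries. The other 7 genes with the largest upward separation were Zfp629, Lrrn2, Bend6, Grrp1, Mn1, Lingo3 and Kif26a. Across all 12, log2 fold changes ran from 3.45 to 5.25 and adjusted p from 0.000239 to 0.00109 (edgeR). The 12 were picked for their separation in these same libraries, so small p-values and calls kept in refits are a description only. Each of the 12 kept an adjusted p under 0.05 with the line as a block and with any 1 library left out.

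The largest separations downward were taken in the same way. Usp26 (chrX:51753959-51801233, minus strand), an X-linked deubiquitinase gene, had 59.4 and 59 CPM in WT. It fell to 0.37 and 0.663 CPM in the KO libraries and 0.17 and 0.444 CPM in the D395A libraries, a log2 fold change of -7.11 ± 0.35 or a factor of 138 (edgeR, adjusted p 0.000364). Smc1b (chr15:85064689-85131964, minus strand), the meiotic form of a cohesin subunit, fell from 46 and 53.4 CPM to 1.08 and 0.922 CPM in the KO libraries and 0.937 and 0.693 CPM in the D395A libraries (log2 fold change -5.77 ± 0.18, edgeR, adjusted p 0.000198). Both genes were well expressed in WT and at no more than 1.08 CPM in any mutant library. Hormad1 (chr3:95559677-95587671), which organises the meiotic chromosome axis, fell from 33 and 37.4 CPM to 2.45 and 2.02 CPM in the KO libraries and 1.92 and 1.77 CPM in the D395A libraries. Gpa33, a cell surface antigen gene, fell from 60.8 and 64.3 CPM to 4.38 and 3.77 CPM in the KO libraries and 3.96 and 4.74 CPM in the D395A libraries. Nlrp14, a gene expressed in oocytes and testis, fell from 14.1 and 16.6 CPM to 0.796 and 0.807 CPM in the KO libraries and 0.809 and 0.693 CPM in the D395A libraries.

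The remaining 7 were Xlr3a, Xlr3b, Xlr5a, Xlr5b, 1700013H16Rik, Gm32885 and Gm21283. The Xlr genes are near-identical copies on the X chromosome, among which counting can divide or drop reads, so their single values are uncertain. Xlr3a fell from 37.1 and 34.6 CPM in WT to 0.654 and 0.346 CPM in the KO libraries and 1.06 and 1.08 CPM in the D395A libraries, and was the lower in KO. Xlr3b fell from 21.1 and 20.8 CPM to 0.882 and 0.836 CPM in the KO libraries and 0.213 and 0.111 CPM in the D395A libraries, and was the lower in D395A. Xlr5b had 547 counts over the 2 WT libraries and 3 over the 4 mutant libraries, a ratio of 307 with a 95% counting interval of 104 to 1491. D395A held no count of Xlr5a or Xlr5b. Over the 12 genes, adjusted p ran from 0.000198 to 0.00668 (edgeR), and each kept its call with the line as a block. These genes too were picked for their separation in the same libraries, so the p-values and kept calls only describe them. Only 1700013H16Rik lost its call in any of the leave-outs, without WT replicate 1.

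**Figure D2:**
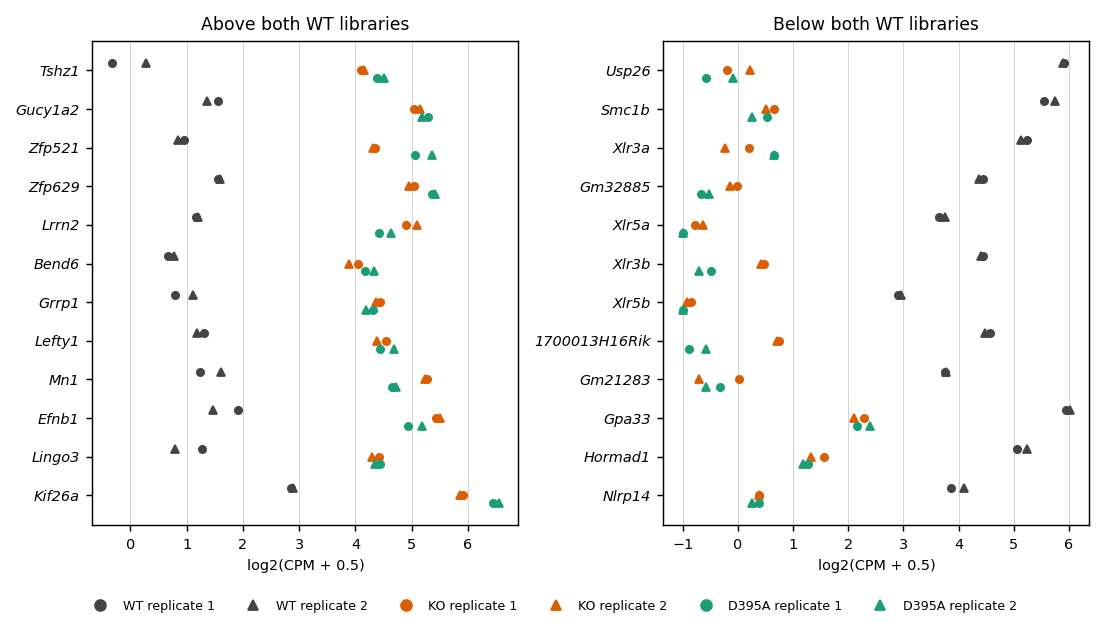
The 12 genes in each direction whose mutant and WT libraries were furthest apart, with log2 of CPM plus 0.5 on each horizontal axis; circles are replicate 1, triangles replicate 2, and colours are genotypes. Tshz1 goes from under 1 CPM in WT to between 16.7 and 22.2 CPM in the mutants, and Usp26 from 59.0 to 59.4 CPM in WT to under 1 CPM.

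The germline list, 26 genes of meiosis and germ cell identity, had 15 members that fell and 0 that rose (edgeR quasi-likelihood; the limma-voom fit with the line as a block called 14 and 0), where 19.2% of all genes fell. A further 11 genes did not pass, among them Ddx4, Stra8 and Sycp1. The median log2 fold change over the 26 was -1.40, beside 0.06 over all genes. Dazl, an RNA-binding protein gene of germ cells, fell from 135 and 148 CPM in WT to 15 and 17 CPM in the KO libraries and 12.5 and 10.3 CPM in the D395A libraries (log2 fold change -3.37 ± 0.19, edgeR, adjusted p 0.000407). Sohlh2, a transcription factor of early germ cell differentiation, fell from 124 and 126 CPM to 19.5 and 21.7 CPM in the KO libraries and 15.7 and 19.9 CPM in the D395A libraries (log2 fold change -2.70 ± 0.13). Others that fell included Sycp3, Mael, Asz1, Stk31, Taf7l, Tex19.1 and Prdm1. The multicopy germline families of the X chromosome lay on the lower side in all 16 genes tested of 21 listed, beside 31.7% of all genes. Of the 16, 12 fell and 0 rose (11 and 0 with the line as a block), with a median of -5.31. A member near 0 in the mutants can pass the filter through its WT libraries alone, so the lower side is partly built in. Without 1 WT library the 2 lists counted 11 and 10 lower.

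The stretches of 250 bases before the start of 4 of these genes are shown because E-boxes and E2F sites are known elements of germline promoters that are silenced in early embryos. The sequences are from RefSeq on GRCm38.p6, in the direction of transcription. Capitals mark matches of CACGTG, the E-box, and of TCCCGC, an E2F core, on either strand, so that the second can appear as GCGGGA. The regions are chr15:85131958-85132207 (minus strand), chr3:95559427-95559676 (plus), chr17:50293621-50293870 (minus) and chr3:55181794-55182043 (plus).
Smc1b: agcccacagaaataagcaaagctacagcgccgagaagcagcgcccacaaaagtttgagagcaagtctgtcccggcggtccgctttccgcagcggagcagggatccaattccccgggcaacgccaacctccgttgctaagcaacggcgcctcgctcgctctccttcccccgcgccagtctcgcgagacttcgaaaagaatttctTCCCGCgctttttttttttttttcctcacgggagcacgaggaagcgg
Hormad1: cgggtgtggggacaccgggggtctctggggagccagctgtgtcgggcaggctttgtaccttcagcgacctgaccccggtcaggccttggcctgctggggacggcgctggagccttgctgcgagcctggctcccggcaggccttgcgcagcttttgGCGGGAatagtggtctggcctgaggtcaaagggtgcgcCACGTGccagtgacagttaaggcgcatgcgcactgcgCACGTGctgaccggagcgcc
Dazl: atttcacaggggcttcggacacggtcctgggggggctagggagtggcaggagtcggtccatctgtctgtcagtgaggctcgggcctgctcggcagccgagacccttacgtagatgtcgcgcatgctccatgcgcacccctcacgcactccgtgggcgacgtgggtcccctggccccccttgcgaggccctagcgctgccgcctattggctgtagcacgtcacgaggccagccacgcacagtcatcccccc
Sohlh2: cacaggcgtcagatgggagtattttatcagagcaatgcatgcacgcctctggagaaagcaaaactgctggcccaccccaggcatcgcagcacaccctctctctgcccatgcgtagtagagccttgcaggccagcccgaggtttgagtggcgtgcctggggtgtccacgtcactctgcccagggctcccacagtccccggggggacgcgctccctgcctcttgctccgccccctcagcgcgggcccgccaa
Smc1b held 1 match and Hormad1 3, while Dazl and Sohlh2 held none in this window. Of the 14 germline genes that fell and have a RefSeq promoter, 6 held CACGTG (42.9%) and 7 held TCCCGC (50%). Among all 12071 tested genes with a promoter of this length, 8.40% held CACGTG and 29.5% held TCCCGC. Over all 25 germline genes tested that have one, 10 held CACGTG (40%), and among the 12 X-linked multicopy genes that fell none did. These are matches of letters and not measured binding.

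Genes of glycolysis and the hypoxia response were lower in both lines. Of 36 tested, 25 fell and 1 rose, where 19.2% of all genes fell and 19.7% rose. The median log2 fold change was -0.95, and all but 4 of those that fell lie off chromosomes 8 and 11. Slc16a3, the lactate exporter MCT4, fell from 177 and 202 CPM in WT to 12.5 and 10.3 CPM in the KO libraries and 16.2 and 22.4 CPM in the D395A libraries (log2 fold change -3.63 ± 0.29, edgeR, adjusted p 0.000665), and is itself on chromosome 11. Pfkp, the platelet form of the glycolytic enzyme phosphofructokinase, fell from 307 and 333 CPM to 50.3 and 48.2 CPM in the KO libraries and 68 and 76.1 CPM in the D395A libraries. Both genes lost most of their signal in each line and somewhat more of it in KO. Ndrg1, a hypoxia-induced gene, fell from 53 and 59.1 CPM to 8.9 and 9.45 CPM in the KO libraries and 6.22 and 8.43 CPM in the D395A libraries. Ndufa4l2, a mitochondrial protein gene also induced by hypoxia, fell from 17.3 and 16.8 CPM to 0.256 and 0.202 CPM in the KO libraries and 0.554 and 1.61 CPM in the D395A libraries. The exception was Pfkm, the muscle form of phosphofructokinase, which rose from 24.7 and 25.1 CPM to 45.8 and 48.1 CPM in the KO libraries and 43.4 and 45.5 CPM in the D395A libraries (log2 fold change 0.88 ± 0.08, edgeR, adjusted p 0.000862). The enzymes Aldoa, Pgk1, Tpi1, Pkm, Ldha and Hk2 fell too, whereas Gapdh, Eno1 and Hif1a did not pass. Under the line block 21 fell and 1 rose, and without 1 WT library 17 or 18 fell.

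Hypoxia-induced and stress-induced genes have well-known promoter cores. Promoters were looked up one by one only for members of these lists that fell and have their values given here. Of these, 1 promoter of the first kind and 2 of the second hold a match and are shown. In the first, capitals mark ACGTG, the core of the hypoxia response element, and in the others TGATGNAA, the core of the element bound by ATF4 dimers, on either strand. All are RefSeq sequences on GRCm38.p6 of 250 bases before the start, at chr11:120948817-120949066 (plus strand), chr7:126625471-126625720 (minus) and chr8:94386179-94386428 (plus).
Slc16a3: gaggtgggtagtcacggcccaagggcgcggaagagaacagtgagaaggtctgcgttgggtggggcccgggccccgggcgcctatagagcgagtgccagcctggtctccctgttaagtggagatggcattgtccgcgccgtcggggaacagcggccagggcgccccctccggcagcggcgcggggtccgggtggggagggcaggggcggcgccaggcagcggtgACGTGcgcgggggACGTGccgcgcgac
Nupr1: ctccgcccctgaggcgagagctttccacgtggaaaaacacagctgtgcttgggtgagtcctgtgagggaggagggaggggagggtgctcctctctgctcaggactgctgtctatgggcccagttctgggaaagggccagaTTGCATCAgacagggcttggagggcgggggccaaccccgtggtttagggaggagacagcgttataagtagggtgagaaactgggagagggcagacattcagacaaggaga
Herpud1: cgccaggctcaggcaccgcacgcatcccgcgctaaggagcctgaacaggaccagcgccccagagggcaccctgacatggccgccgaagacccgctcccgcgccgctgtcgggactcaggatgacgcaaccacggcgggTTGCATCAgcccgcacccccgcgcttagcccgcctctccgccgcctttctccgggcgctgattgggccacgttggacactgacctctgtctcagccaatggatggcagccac
Nupr1 and Herpud1 held 1 match each, and Ppp1r15a and Slc7a1, of the same list, held none in this window. Slc16a3 held 2 matches, while Pfkp held none and Ndrg1 and Ndufa4l2 were not matched to a promoter. Of the 20 genes of the glycolysis and hypoxia list that fell and have a promoter, 10 held ACGTG (50%), as did 16 of all 31 tested (51.6%) and 21.1% of all 12071 promoters. Every CACGTG also contains ACGTG, so the germline list holds many such matches as well, in 9 of its 14 genes that fell. TGATGNAA was in 2.07% of all promoters and in 4 of 13 genes of the integrated stress response list that fell (30.8%), and in 7 of all 29 of that list (24.1%).

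The integrated stress response and amino acid list, which holds targets of ATF4, amino acid transporters and transfer RNA synthetases, had 18 of 36 members that fell and 3 that rose, beside 19.2% and 19.7% of all genes. Its median log2 fold change was -0.56, and 6 of the 18 lie on chromosomes 8 or 11. Nupr1, a stress-induced chromatin protein gene, fell from 54.5 and 63.6 CPM in WT to 20.2 and 19.2 CPM in the KO libraries and 20.7 and 18.9 CPM in the D395A libraries, and the lines overlapped (log2 fold change -1.58 ± 0.09, edgeR, adjusted p 0.000418). Ppp1r15a, which directs a phosphatase to the initiation factor eIF2, fell from 41.8 and 37.8 CPM to 18.4 and 20.5 CPM in the KO libraries and 18.5 and 17.1 CPM in the D395A libraries. Slc7a1, a transporter of cationic amino acids, fell from 412 and 407 CPM to 183 and 189 CPM in the KO libraries and 187 and 227 CPM in the D395A libraries. Herpud1, of the degradation pathway of the endoplasmic reticulum and located on chromosome 8, fell by 1.32 on the log2 scale. Asns, Ddit3 and Slc7a5 fell, and Atf4, Trib3 and Chac1 did not pass. In the other direction, the bZIP factor gene Atf5 rose from 8.6 and 10.4 CPM to 31.5 and 26.1 CPM in the KO libraries and 43.3 and 43.5 CPM in the D395A libraries, and Cebpb rose by 1.63, a call that was lost with the line as a block (limma-voom, adjusted p 0.263). The list is among those that shrink most under other choices: 8 fell with the line as a block, and 4 or 5 without 1 WT library. Herpud1 and Cebpb lost their calls without either WT library.

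The proteasome was lower as a group, by small amounts. Of 36 subunit and assembly genes, 26 fell and 1 rose, against shares of 19.2% and 19.7% over all genes. The median log2 fold change was -0.57, and 6 of the 26 lie on chromosomes 8 or 11. Psmc4, an ATPase of the regulatory particle, was at 125 and 109.6 CPM in WT, 61.8 and 62.5 CPM in the KO libraries and 61.4 and 63.1 CPM in the D395A libraries (log2 fold change -0.91 ± 0.07, edgeR, adjusted p 0.000667). The 4 mutant libraries were within 2 CPM of each other. Psmc5, another ATPase of that ring, was at 154 and 152 CPM in WT, 71 and 76.3 CPM in the KO libraries and 71 and 72.8 CPM in the D395A libraries, and Psmb6, a catalytic subunit, at 223 and 235, 108 and 113 and 107 and 95 CPM in WT, KO and D395A libraries, both genes being on chromosome 11. Psma8, a form of a core subunit made in the testis, fell by 1.20 on the log2 scale. The exception was Psmd5, an assembly chaperone rather than a subunit of the finished particle, which rose by 0.34 ± 0.10 (edgeR, adjusted p 0.042). The line block left 15 lower and 0 higher, and without 1 WT library 12 or 14 fell. Psma8 lost its call without either WT library, and Psmd5 without any 1 of the WT or KO libraries.

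In the list of p53 and its targets more genes rose than fell. Of 33 genes, Trp53 included, 16 rose, 15 did not pass and 2 fell, beside 19.7% of all genes that rose and 19.2% that fell, and the median log2 fold change was 0.64. Cdkn1a, the p21 inhibitor of cyclin-dependent kinases, rose from 164 and 157 CPM in WT to 367 and 385 CPM in the KO libraries and 408 and 403 CPM in the D395A libraries (log2 fold change 1.28 ± 0.08, edgeR, adjusted p 0.000449). Perp, a membrane protein gene of the p53 response, rose from 7.69 and 8.74 CPM to 30.2 and 32.8 CPM in the KO libraries and 32.6 and 30.5 CPM in the D395A libraries. Phlda3, an inhibitor of AKT signalling, rose from 17.9 and 15.3 CPM to 75.9 and 71.9 CPM in the KO libraries and 58.4 and 51.3 CPM in the D395A libraries, and Ak1, adenylate kinase, by 1.49 ± 0.09. All of these stood apart from WT in each library. Bax, Bbc3, Fas and Ccng1 rose, while Mdm2 did not pass. The 2 that fell were Trp53 itself and the DNA repair gene Xpc, with a log2 fold change of -0.27. Trp53, on chromosome 11, was at 364 and 362 CPM in WT, 176 and 185 CPM in the KO libraries and 177 and 199 CPM in the D395A libraries (log2 fold change -0.98 ± 0.08, edgeR, adjusted p 0.000602). Without either WT library, and likewise under the line block, 9 rose and 1 fell, and Xpc lost its call with the line as a block and without any 1 of the 6 libraries.

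Among 28 genes of circular RNA formation and decay, the study's other interest, 12 fell and 4 rose (median -0.21). Over all genes 19.2% fell and 19.7% rose. Outside chromosomes 8, 11 and Y, 7 of 21 members fell and 4 rose, beside 16.1% and 21.5% of all genes there. Of the 12 that fell, 5 lie on chromosomes 8 or 11, among them Upf1, the helicase of nonsense-mediated decay, which went from 311 and 311 CPM in WT to 166 and 170.5 CPM in the KO libraries and 181 and 196 CPM in the D395A libraries. Taf15, of chromosome 11, went from 125 and 127 CPM to 58.8 and 53.5 CPM in the KO libraries and 63.5 and 67.7 CPM in the D395A libraries, and Ddx39, of chromosome 8, fell by 0.99 on the log2 scale. Nova2, a splicing regulator best known from neurons, fell from 34.3 and 35.6 CPM to 10.9 and 9.85 CPM in the KO libraries and to a lower 3.58 and 2.58 CPM in the D395A libraries, although 31.7% of its exonic length overlaps a gene on the opposite strand. Mbnl2, a muscleblind splicing factor gene, rose from 21 and 20.3 CPM to 80.2 and 83.8 CPM in the KO libraries and 45.3 and 44 CPM in the D395A libraries. Rbm20, a splicing factor gene of muscle, rose from 2.02 and 3.22 CPM to 9.78 and 11.4 CPM in the KO libraries and 7.24 and 7.99 CPM in the D395A libraries. Under the line block 6 fell and 1 rose, and without 1 WT library 3 fell and at most 1 rose. Nova2 and Mbnl2 lost their calls without either WT library, and Rbm20 without WT replicate 1 and with the line as a block (limma-voom, adjusted p 0.0664). Circular RNAs themselves were not analysed here.

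Of 24 genes of the naive pluripotent state, 8 fell and 1 rose (median -0.40), beside 19.2% and 19.7% of all genes. Klf5, a Krüppel-like factor of the naive network, fell from 230.1 and 241 CPM in WT to 102 and 98.8 CPM in the KO libraries and 65.7 and 79.1 CPM in the D395A libraries (log2 fold change -1.44 ± 0.18, edgeR, adjusted p 0.00214). Its relative Klf2, on chromosome 8, rose from 262 and 253 CPM to 928 and 848 CPM in the KO libraries and 514 and 490.4 CPM in the D395A libraries. Tcl1, a coactivator of AKT, fell from 58.4 and 61.8 CPM to 15.5 and 14.1 CPM in the KO libraries and 3.28 and 3.49 CPM in the D395A libraries. Pecam1, an adhesion molecule of naive cells and of endothelium, on chromosome 11, fell from 280.2 and 281 CPM to 91.7 and 91.8 CPM in the KO libraries and 34.9 and 42.9 CPM in the D395A libraries. For the last 3 genes the lines moved in the same direction but by different amounts. Manba fell by 1.15 on the log2 scale. In the fit with a line block 5 fell and 1 rose, and without 1 WT library 2 fell and 0 rose. Klf2, Tcl1, Pecam1 and Manba lost their calls without either WT library, and Manba also without D395A replicate 2.

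**Figure D3:**
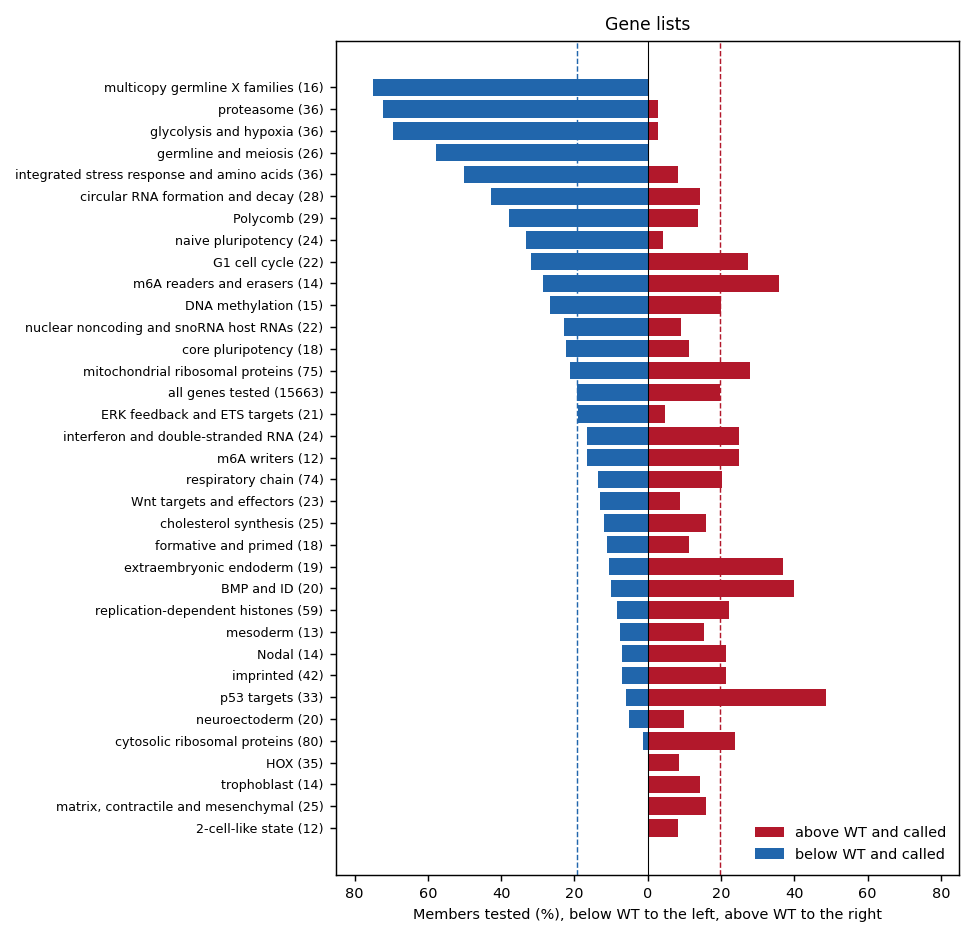
Share of each gene list that rose (red, to the right) or fell (blue, to the left) in the pooled comparison, in percent of the members tested, whose number is in brackets; dashed lines mark the shares over all 15663 genes tested. The germline, multicopy X, glycolysis and hypoxia, and proteasome lists reach furthest to the left, and the p53 list furthest to the right.

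Some genes changed by almost the same amount in both lines. Casp8, an initiator caspase of apoptosis, rose from 3.64 and 2.89 CPM in WT to 22.6 and 25.4 CPM in the KO libraries and 23 and 22.9 CPM in the D395A libraries. Socs5, a suppressor of cytokine signalling, rose from 6.98 and 7.19 CPM to 39.6 and 36.8 CPM in the KO libraries and 37.5 and 38.5 CPM in the D395A libraries, log2 fold changes of 2.43 in KO and 2.42 in D395A. In both genes the libraries of the lines could not be separated by level. Ggt1, a gamma-glutamyltransferase of glutathione metabolism, fell from 51 and 51 CPM to 8.28 and 8.5 CPM in the KO libraries and 7.67 and 8.07 CPM in the D395A libraries. Prdm1, a repressor needed for germ cell specification, fell from 19.4 and 19.3 CPM to 5.4 and 3.57 CPM in the KO libraries and 3.45 and 4.88 CPM in the D395A libraries. Besides these, Fam102b, Gulp1 and Lingo3 completed the 5 most equal genes that rose, and 4933427D06Rik, Prelid2 and Nlrp14 the 5 that fell. They were picked for a small difference between the lines, and both line values share the same WT libraries, so their likeness is a description only.

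The pooled comparison hides genes for which the lines parted. Nanog, a core factor of pluripotency, was at 931 and 909.9 CPM in WT, 1545 and 1609 CPM in the KO libraries and 441 and 470.3 CPM in the D395A libraries. KO lay above WT and D395A below it, and the pooled log2 fold change was 0.14 ± 0.61 (edgeR, adjusted p 0.867). Klf4 and Pou5f1 had the same order, with log2 values of 0.41 and 0.42 in KO and -0.86 and -0.57 in D395A, and 14.1% of the exonic length of Pou5f1 overlaps a gene on the opposite strand. Sox2, with 280 and 302 CPM in WT, 308 and 265 CPM in the KO libraries and 311 and 286 CPM in the D395A libraries, overlapped in all groups. Its D395A minus KO difference of 0.06 ± 0.08 did not pass (edgeR, adjusted p 0.571). Pooled values were -0.13 for Esrrb and -0.29 for Myc, neither of which passed. The signs of the small pooled values of Nanog, Klf4, Pou5f1 and Sox2 depended on the library left out or on the scaling.

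Of the genes with the widest partings, by the D395A minus KO difference, 7 are described. H19, an imprinted noncoding RNA, was at 0.762 and 1.02 CPM in WT, 0.682 and 0.691 CPM in the KO libraries and 32.8 and 35.2 CPM in the D395A libraries. Igfbp5, a binding protein of insulin-like growth factors, was at 2.09 and 2.15 CPM in WT, 1.42 and 1.56 CPM in the KO libraries and 51.4 and 53.9 CPM in the D395A libraries. Both genes were higher in D395A than in WT. KO lay below WT for Igfbp5, while for H19 its log2 difference from WT, -0.36, did not pass (edgeR on 3 groups, adjusted p 0.226). Dppa3, which guards methylation in the early embryo, was at 25.2 and 27.6 CPM in WT, 2.53 and 2.65 CPM in the KO libraries and 83.6 and 69 CPM in the D395A libraries. Tbx3, a T-box factor of the naive state, was at 283 and 282 CPM in WT, 412 and 380.2 CPM in the KO libraries and 17.7 and 19.2 CPM in the D395A libraries. Myof, a membrane repair protein gene, was at 125 and 134 CPM in WT, 249 and 241 CPM in the KO libraries and 11.7 and 12.8 CPM in the D395A libraries. Npr3 and Pla2g4e shared the pattern of Tbx3. None of these 7 passed in the pooled comparison, where their adjusted p ran from 0.141 to 0.996 (edgeR).

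**Figure D4:**
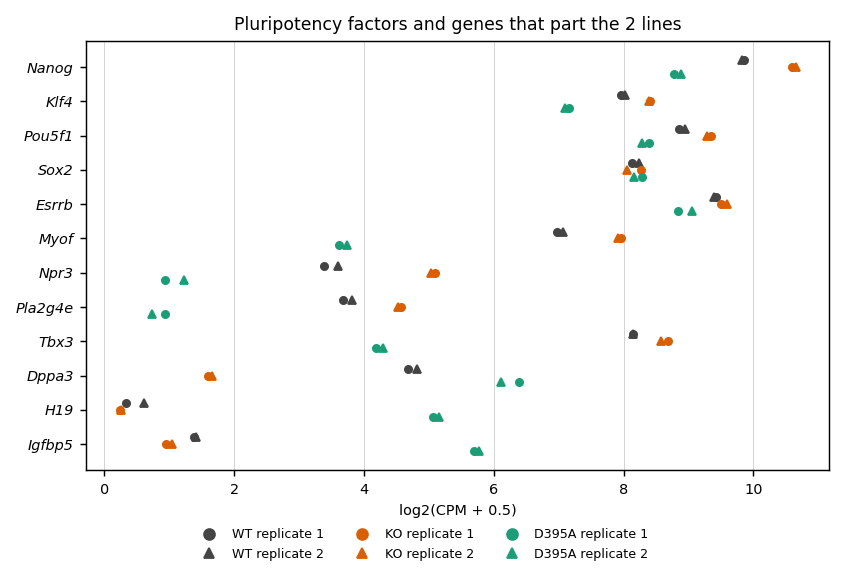
Level of 5 pluripotency factors and 7 of the genes with the widest difference between the lines, as log2 of CPM plus 0.5 on the horizontal axis; circles are replicate 1, triangles replicate 2, and colours are genotypes. For H19, Igfbp5 and Dppa3 the D395A libraries lie to the right of WT, for Tbx3, Myof, Npr3 and Pla2g4e they lie to the left, and for Sox2 the groups overlap.

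The genes that fell were spread unevenly over the genome. On chromosome 8, 313 of 812 tested genes fell (38.5%) and 78 rose (9.61%), and on chromosome 11, 522 of 1302 fell (40.1%) and 101 rose (7.76%). The median log2 fold change was -0.37 on chromosome 8 (KO -0.48, D395A -0.35) and -0.41 on chromosome 11 (KO -0.42, D395A -0.49). On the other autosomes 12.7 to 19.6% fell and 16.6 to 27.3% rose. The share of gene counts from chromosome 11 was 12.3 and 12.4% in the WT libraries, 9.51 and 9.56% in the KO libraries and 8.85 and 8.96% in the D395A libraries, and that from chromosome 8 was 6.12 and 6.14% in WT and 4.69 to 4.88% in the mutants. Genes outside chromosomes 8, 11 and Y rose in 21.5% and fell in 16.1% of 13541 tested, with a median of 0.12. Chromosome copy number was not tested here, so for a single gene of either chromosome a change shared with its chromosome cannot be told apart from one of its own. With chromosomes 8, 11 and Y left out before scaling, 5015 of 13559 genes were called. None of the 8 chromosome Y genes tested was called (edgeR), and their median log2 fold change was 0.49 in KO and -1.99 in D395A. Not every gene followed the medians: Eif2s3y lay below WT in both lines and Usp9y above it in both.

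**Figure D5:**
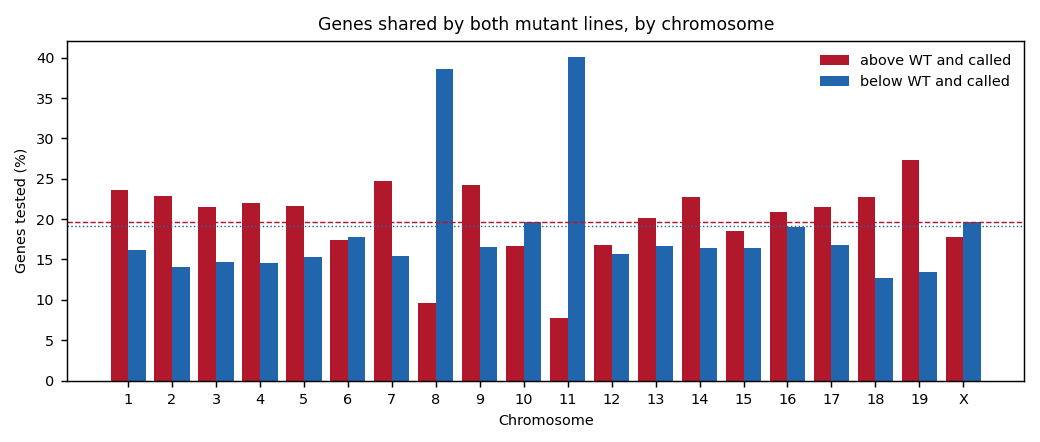
Percent of tested genes that rose (red) or fell (blue) in the pooled comparison, for each chromosome with at least 100 genes tested; the dashed and dotted lines mark the shares over all genes, 19.7% and 19.2%. On chromosomes 8 and 11 the blue bars reach 38.5 and 40.1%.

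Gene class and structure were compared between the genes that changed and all genes, with no test. Protein-coding genes made up 96.1% of those that rose, 94.9% of those that fell and 93.0% of all annotated genes tested. The median exonic length of protein-coding genes was 4644 bases for those that rose, 4440.5 for those that fell and 4350 for all tested. The longest transcript of these protein-coding genes had a median of 7, 10 and 8 exons in the same order. GGACT, a common form of the m6A consensus, was counted per kilobase of that transcript. Its median was 1.10 in protein-coding genes that rose, 1.01 in those that fell and 1.05 in all. Among 278 long intergenic noncoding RNAs, 24.5% fell and 9.0% rose, while among 254 antisense RNAs 5.5% fell and 17.7% rose.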

How the data were processed

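RNA was sequenced from 6 libraries with a strand-marking kit after removal of ribosomal RNA, per the labels' protocols. The deposited values are raw read counts per gene, made by the authors with Trimmomatic 0.36, STAR 2.7 and HTSeq 0.11.2 on mm10, per the submitters' processing notes. For the annotation release and the strand setting of the counting, the sources used here say nothing, and reads of overlapping genes on opposite strands may be mixed. Summary lines with no gene name held 29.0 to 44.2% of each table's total and were left out.

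The 4 mutant libraries were compared with the 2 WT libraries by edgeR 4.0.16 (R 4.3.3) quasi-likelihood, with filterByExpr, TMM scaling and Benjamini-Hochberg adjustment over 15663 genes at 0.05. A gene on 1 side has CPM (TMM-scaled) of all 4 mutant libraries above, or below, both WT libraries. "Rose" and "fell" are used of genes on 1 side that passed. Line values come from a fit with 3 groups. CPM are printed per library and fold changes on the log2 scale with SE. The precision is set by 2 libraries per genotype. The fit was checked on simulated counts that held no difference between the mutant lines and a smaller spread than the pooled comparison. That check therefore cannot show how the pooled calls are affected by the difference between the lines. Alternatives used DESeq2 1.42.0, limma 3.58.1 with the line as a block, other scalings and filters, and leaving out each library.

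Genes are named as follows: a fixed set of METTL3 partners and pluripotency factors, the 12 largest gaps in log2(CPM + 0.5) per direction among genes with at least 2 CPM and no opposite-strand exon overlap, the 5 most equal per direction with a log2 change of at least 2 in both lines and at least 10 CPM, the 4 widest partings in each sense, and up to 4 members per list in its leading direction and 2 in the other. Of the genes this names, 1 is not reported here. Other list members are named only as having passed or not. The members and the 36 gene lists were chosen with earlier results of these data known. The 13 lists described one by one, the 4 promoter motifs and the GGACT count were picked after the counts were seen. The lists not described one by one are in the plot of gene lists if at least 10 of their genes were tested. Of 24984 gene symbols, 24458 (97.89%) were placed by GENCODE M21, and 12071 tested genes matched a RefSeq promoter.

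No pairing by replicate number was seen: deviations of same-numbered libraries correlated at -0.01 (WT with KO), -0.00 (WT with D395A) and -0.12 (KO with D395A). These values cannot tell whether same-numbered libraries were prepared together.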

Additional observations from a re-analysis of the deposited data

Results flagged for a closer look

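Of the 110 genes named, 62 differed between the lines, beside 50.4% of all genes tested, by the D395A minus KO contrast (edgeR quasi-likelihood on 3 groups, adjusted p under 0.05). In this contrast the spread is that between the 2 libraries of a line, and line and genotype cannot be told apart. Values are log2 differences, positive where D395A was higher.

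Among genes that rose in the pooled comparison, D395A was higher than KO for Ccnd2 3.68, Zfp521 0.913, Phc2 0.66, Kif26a 0.627, Atf5 0.591, Rbm15b 0.442, Zfp629 0.395, Tshz1 0.323 and Bend6 0.292. KO was the higher for Ak1 -0.151, Psmd5 -0.205, Efnb1 -0.403, Wtap -0.409, Bmp7 -0.416, Phlda3 -0.434, Rbm20 -0.47, Lrrn2 -0.472, Mn1 -0.577, Bambi -0.737, Klf2 -0.823, Mbnl2 -0.878 and Cdkn1c -0.962.

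Among genes that fell, D395A was the higher, that is, the less reduced, for Ndufa4l2 2.33, Xlr3a 1.1, Phf19 0.798, Slc16a3 0.782, Herpud1 0.755, Pfkp 0.552, Pcgf5 0.359, Mettl14 0.338 and Taf15 0.226. D395A was the more reduced for Dusp9 -0.208, Cdk2 -0.227, Ddx39 -0.235, Suz12 -0.319, Ccnd3 -0.321, Klf5 -0.469, Psma8 -0.478, Dazl -0.505, Manba -0.899, Cbx7 -1.05, Pecam1 -1.23, Gm32885 -1.38, Nova2 -1.79, Tcl1 -2.12, Xlr3b -2.47, Smad9 -2.72, 1700013H16Rik -3.25 and Xlr5a -5.02. The value of Xlr5a is set by a count of 0 in D395A and is no measured size.

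Among genes that did not pass in the pooled comparison, D395A was higher for H19 5.62, Igfbp5 5.14, Dppa3 4.87, Mettl3 1.67 and Myc 1.42, and lower for Esrrb -0.597, Pou5f1 -0.981, Klf4 -1.28, Nanog -1.79, Pla2g4e -4.18, Myof -4.31, Npr3 -4.31 and Tbx3 -4.42.

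A library stood apart from the other 3 mutant libraries in 2 genes, by its gap to the nearest of them over their whole range: D395A replicate 2 was low in Nlrp14 (0.888) and high in Slc7a1 (0.855). Were the 4 libraries exchangeable, chance would mark about 1 in 20 genes in this way, but they are 2 lines of 2.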

How the results depend on the processing

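The number of genes called, 6094, moved to 2175 with the line as a block in limma-voom and to 11124 with the mean of both line coefficients (9295 of them on 1 side), and ran from 2062 to 5843 with 1 library left out, the WT libraries giving the lowest. Other scalings, filters, DESeq2's test, the robust fit and the removal of Rn45s or of chromosomes 8, 11 and Y gave 5015 to 7502. The replicate block gave 4524, although no pairing by number was seen. With the KO numbers crossed, a choice added after seeing the data, it gave 4479. The number tested differs by setting. With both WT libraries kept, genes on 1 side ran from 7609 of 11123 tested (filter at 5 CPM) to 10758 of 16243 (without KO replicate 2), beside 9838 of 15663. Leaving out any library makes the rule easier to meet, so these counts are not alike. All settings but that with the KO numbers crossed were run gene by gene for the 110 genes named by the rule. None of the 96 called among them changed direction. That was largely fixed in advance, since every called gene had all its mutant libraries on 1 side of both WT libraries. Of the 96, 11 lost their call with the line as a block, 6 with the replicate block, 23 without WT replicate 1 and 21 without WT replicate 2.

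Reversals touched only genes that were not called, which the selection of called genes made likely in advance. With the line as a block, Dppa3 had -1.05, Nanog -0.127, Npr3 -0.364 and Pou5f1 -0.0764 on the log2 scale, and with the mean of line coefficients -0.909, -0.119, -0.537 and -0.0749. Pou5f1 had -0.0121 by plain CPM and -0.0534 without chromosomes 8, 11 and Y. Sox2 had -0.000527 with DESeq2's size factors, -0.00109 by plain CPM, -0.000618 by DESeq2's test and -0.0544 without those chromosomes. Myof had 0.000489 with no filter and 0.0108 with the filter at 5 CPM. Leaving out 1 library, the values ran from -0.0908 to 0.97 for Dppa3, -0.31 to 0.11 for Klf4, -0.55 to 0.37 for Myof, -0.17 to 0.39 for Nanog, -0.62 to 0.29 for Pla2g4e, -0.17 to 0.17 for Pou5f1 and -0.0475 to 0.0601 for Sox2. The cause was not tested. Scaling moved the median of all genes by at most -0.01. Depth limits genes near 0 in the mutants, since 1 count is 0.0426 CPM in the shallowest library.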

Other observations

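Among 20 genes of BMP signalling and the ID factors, 8 rose and 2 fell (median log2 fold change 0.77, beside 0.06 over all genes). Over all genes 19.7% rose and 19.2% fell. Bmp7, a secreted ligand, rose from 19.3 and 17.6 CPM in WT to 84.5 and 84.6 CPM in the KO libraries and 63.3 and 63.4 CPM in the D395A libraries (log2 fold change 2.00 ± 0.18, edgeR, adjusted p 0.000811). Bambi, a pseudoreceptor that dampens the pathway, rose from 7.35 and 7.58 CPM to 40 and 35.7 CPM in the KO libraries and 22.5 and 22.8 CPM in the D395A libraries. Fst, a secreted antagonist, rose from 0.885 and 1.9 CPM to 8.02 and 9.97 CPM in the KO libraries and 10.4 and 11.5 CPM in the D395A libraries, and Id4, a dominant-negative helix-loop-helix factor, from 2.88 and 2.84 CPM to 13 and 12.6 CPM in the KO libraries and 12.3 and 9.48 CPM in the D395A libraries. The members that rose therefore include a ligand and antagonists alike. The 2 that fell were Smad9, a transducer of the pathway, from 14.7 and 16.1 CPM to 1.56 and 1.79 CPM in the KO libraries and 0.213 and 0.277 CPM in the D395A libraries, and Dusp9, a phosphatase of ERK, with a log2 fold change of -0.72. Under the line block 3 rose and 2 fell, and without 1 WT library 4 rose and 1 fell. Fst lost its call with the line as a block, and Smad9 without either WT library.

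Of 29 Polycomb genes, 11 fell and 4 rose, while the median was -0.00. The shares over all genes were 19.2% and 19.7%. Outside chromosomes 8, 11 and Y, 9 of 23 members fell and 4 rose, beside 16.1% and 21.5% of all genes there. Suz12, a core subunit of the complex that methylates histone H3 at lysine 27, fell from 579.6 and 596 CPM in WT to 238 and 242 CPM in the KO libraries and 189.6 and 195 CPM in the D395A libraries (log2 fold change -1.44 ± 0.12, edgeR, adjusted p 0.000734), and lies on chromosome 11. Cbx7, the chromodomain subunit typical of ES cells, fell from 105 and 109 CPM to 47.3 and 42.8 CPM in the KO libraries and 21.9 and 21.8 CPM in the D395A libraries. Phf19 fell from 6.02 and 6.45 CPM to 1.11 and 1.27 CPM in the KO libraries and 2.09 and 2.05 CPM in the D395A libraries. Phc2 rose by 1.58 ± 0.26 and Scmh1 by 0.66 ± 0.07, both being subunits of the other Polycomb complex, as is Pcgf5, which fell by 1.19 on the log2 scale. The line block gave other counts: 8 fell and 2 rose, and without 1 WT library 4 or 5 fell. Cbx7 and Phc2 lost their calls without either WT library, and Phf19 without WT replicate 2.

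Of 22 genes of the G1 phase, 7 fell and 6 rose, beside 19.2% and 19.7% of all genes. Cdc25a, a phosphatase that activates cyclin-dependent kinases, fell from 135 and 129 CPM in WT to 69.7 and 73.5 CPM in the KO libraries and 68.8 and 71.5 CPM in the D395A libraries (log2 fold change -0.90 ± 0.06, edgeR, adjusted p 0.000561). The cyclin gene Ccnd3, Cdk2 and the pocket protein gene Rbl2, which lies on chromosome 8, fell with log2 fold changes of -0.88, -0.55 and -1.08. Ccnd2, a D-type cyclin, rose in both lines but unequally, from 1.4 and 1.57 CPM to 5.89 and 6.54 CPM in the KO libraries and 68.2 and 90.3 CPM in the D395A libraries, and its call (edgeR, adjusted p 0.0496) was lost with the line as a block and without either WT or either D395A library. Cdkn1c, an imprinted inhibitor of these kinases, rose from 1.11 and 0.854 CPM to 7.65 and 7.49 CPM in the KO libraries and 3.41 and 4.3 CPM in the D395A libraries, although 30.7% of its exonic length overlaps a gene on the opposite strand. In the fit with a line block 3 rose and 4 fell, and without 1 WT library 3 rose and 3 fell. Cdk2 and Cdkn1c lost their calls without either WT library, and Cdkn1c also with the line as a block (limma-voom, adjusted p 0.0731).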
